A study of Paeonia ostii with 18 samples.

Results

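The core histones H2A, H2B, H3 and H4 of tree peony were followed through chilling-induced dormancy release with 8 array probes, 2 for H4, 1 for H2A, 2 for H2B and 3 for H3, out of 14957 non-control probes. The probes were H4 CUST_67_PI425249770 and CUST_6113_PI425249770, H2A CUST_6143_PI425249770, H2B CUST_7485_PI425249770 and HTB1 CUST_5339_PI425249770 (HTB1 is an Arabidopsis H2B gene), and H3 CUST_2804_PI425249770 and CUST_14715_PI425249770 with H3.2 CUST_4606_PI425249770, and probes are named below by the first part of these identifiers. They were picked by name from the study's lists of probes that had been called differentially expressed on these same arrays, so their time courses below are descriptions, and the p-values describe the fit and are not independent evidence of a change. Each name is that of the closest protein match in another species, Arabidopsis for 6 of them, Ricinus communis for H2A CUST_6143 and the moss Physcomitrella patens for H2B CUST_7485.

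Flower buds came from whole potted plants of Paeonia ostii 'Feng Dan Bai', 4 years old, kept at 0 to 4 °C for 0, 6, 12, 15, 18 or 24 d. No plant carried a transgene or received any agent, and the 0 d plants were endo-dormant (held back from growth within the bud itself) before chilling began. The study placed the end of endo-dormancy at 18 d and treated 24 d as eco-dormancy, in which only outside conditions hold back growth. Each time had 3 replicates of 3 plants with 3 buds per plant, and each replicate was hybridized to 1 single-channel Agilent array, 18 arrays in all. A value below is a normalized log2 signal, so a difference of 1 is a doubling, and levels are compared only within a probe.

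Chilling times were not spread evenly over the 3 slides that held the arrays. The first slide carried the 0 d and 6 d arrays with 2 of the 12 d replicates (1 and 2). On the second were the remaining 12 d replicate, every 15 d and 18 d array and the first 24 d replicate, and the third carried the other 24 d replicates. The comparisons 6 against 0 d and 18 against 15 d lay within a slide, whereas arrays of 18 or 24 d never shared a slide with those of 0 d. With slide as a fixed block, those differences are linked through the 12 d arrays, which lay on the first and second slides. The third slide held 24 d arrays alone, which then add nothing to the estimated differences, so that 24 d rests on its 1 array on the second slide. Between 82.1 and 96.2% of probe spots were above background on an array, and all 8 histone probes were above it on all 18 arrays, with no flagged spot. Markers of bud tissues (AGL20, AS1, ML1 and a CLAVATA1-like receptor kinase) were also above background on every array. AGL20 rose between 0 and 24 d by 2.65 (adjusted p = 0.0134) and AS1 by 0.56 (adjusted p = 0.0379), and AS1 rose by 0.55 by 18 d (adjusted p = 0.0250), in the comparisons in which histone probes were called, and their part in those results was not tested. The other 2 of the 4 markers were not called, with differences from 0 d of -0.27 at 18 d and -0.13 at 24 d for ML1 and of -0.32 and -0.01 for the CLAVATA1-like probe. Whole buds were extracted, so that a lower share of cells making a histone and less histone mRNA per cell cannot be told apart.

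Core histones form the protein spool of the nucleosome, in which pairs of H2A, H2B, H3 and H4 are wrapped by DNA. Most of their mRNA is made while DNA is replicated in S phase of the cell cycle, when new DNA has to be packed, so that their transcripts are commonly high in dividing tissue such as a growing meristem and low in resting tissue. Plant histone mRNAs carry poly(A) tails, unlike the replication-dependent histone mRNAs of animals, and each histone is encoded by many near-identical gene copies. A probe of such a family may therefore pick up several copies, and which copies each of these probes measured was not tested.

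Over the 6 times, 6 of the 8 histone probes passed limma's moderated F test at an adjusted p under 0.05, and 5.72% of the 14955 probes tested passed it. Since the probes were chosen on these arrays, nothing is read from that count. H3 CUST_2804 had the lowest adjusted p (0.0254), followed by H4 CUST_67 (0.0313), H2B CUST_7485 (0.0326), HTB1 CUST_5339 (0.0361), H2A CUST_6143 (0.0449) and H3.2 CUST_4606 (0.0492). H4 CUST_6113 (0.0998) and H3 CUST_14715 (0.397) did not pass. The calls lay close to the threshold. With slide as a fixed block none of the 8 passed, the 6 called ones having adjusted p from 0.101 for H4 CUST_67 to 0.494 for H3.2 CUST_4606, and 59 probes of the whole array did. Leaving out 1 array gave between 0 and 6 passing histone probes, with 0 when replicate 1 of 0 d or replicate 2 of 24 d was left out, and 1 without replicate 3 of 0 d, replicate 1 of 15 d or replicate 2 of 18 d. It gave 2 without replicate 2 of 0, 6 or 15 d, replicate 1 of 18 d or replicate 1 of 24 d, and 3 without replicate 1 or 3 of 6 d or replicate 3 of 18 d.

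**Figure D1:**
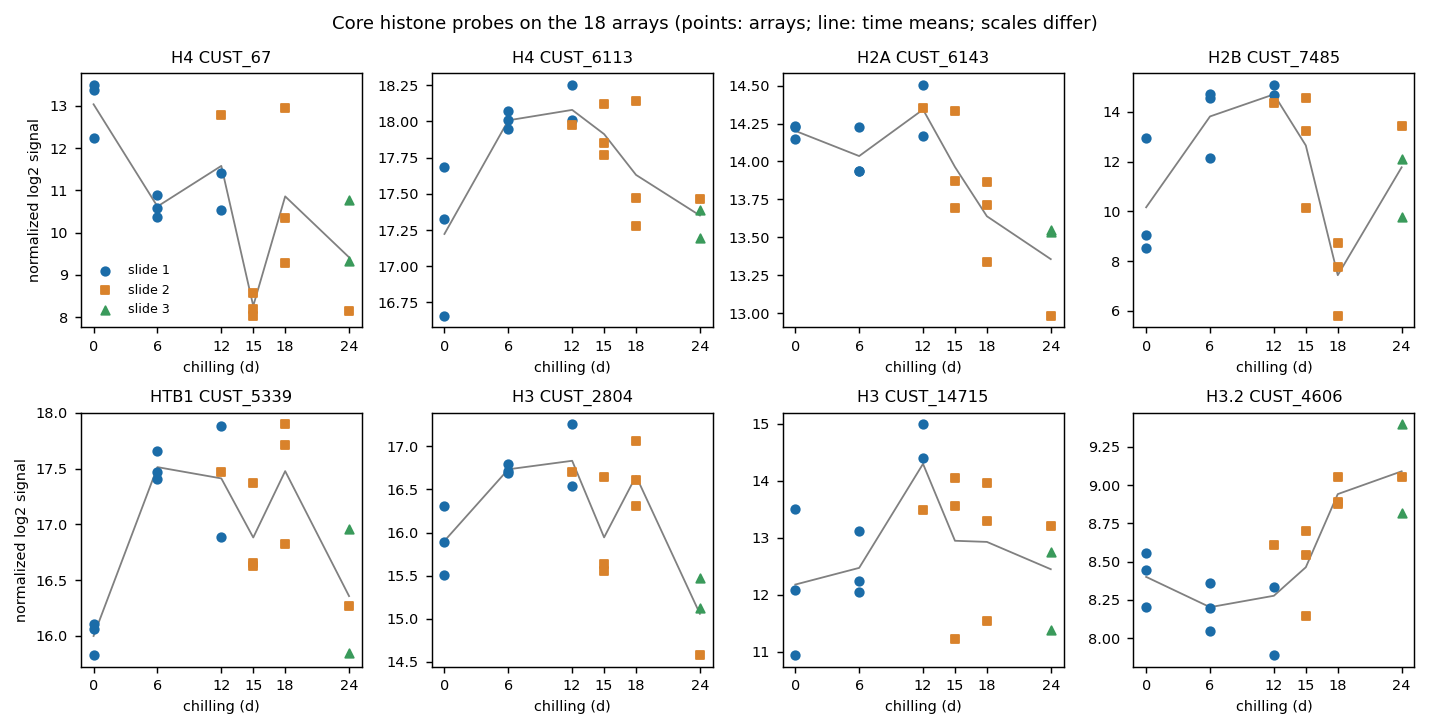
Normalized log2 signal (vertical axis, scale set per panel) of the 8 core histone probes against days of chilling (horizontal axis). Each point is 1 array, coloured and shaped by its slide, and the grey line joins the means of the 3 arrays of a time. HTB1 CUST_5339 was low at 0 and 24 d and H3 CUST_2804 at 0, 15 and 24 d, H4 CUST_67 was highest at 0 d, H2B CUST_7485 was lowest at 18 d and H3.2 CUST_4606 was highest at 18 and 24 d.

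H4, which pairs with H3 in the core of the nucleosome, had 2 probes with different time courses. The signal of H4 CUST_67 on replicates 1, 2 and 3 was 13.50, 12.24 and 13.36 at 0 d, 10.90, 10.58 and 10.38 at 6 d and 11.42, 10.54 and 12.78 at 12 d. It was 8.04, 8.19 and 8.57 at 15 d, 10.34, 12.94 and 9.29 at 18 d and 8.14, 9.33 and 10.78 at 24 d. The 0 d arrays were thus the high ones and the 15 d arrays the low ones, while the arrays of 18 d spread over most of the range of the probe. From the highest time mean to the lowest the order was 0, 12, 18, 6, 24 and 15 d, and the arrays of every pair of neighbours in that order overlapped. Replicates of H4 CUST_67 differed widely, with a within-time SD of 1.09 that was larger than that of 95.4% of all probes.

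From 0 to 24 d, H4 CUST_67 fell by 3.62 on the log2 scale (12.3-fold lower, standard error 0.83, adjusted p = 0.0216, limma), with every 24 d array below every 0 d array. The call was lost without replicate 1 or 3 of 0 d or replicate 1 or 2 of 24 d, with adjusted p between 0.0604 and 0.0645 in these 4 fits. It was also lost in the fit of the 0 and 24 d arrays alone (adjusted p = 0.0929), which called 0 probes of the whole array. With slide as a block the difference was -6.70 and was not called. It rested on 1 array of 24 d and on the 12 d arrays that link the slides. Those 12 d arrays had 12.78 on slide 2 and a mean of 10.98 on slide 1. Within slide 1, the 6 d arrays were all lower than the 0 d arrays, with a mean difference of -2.42 (standard error 0.83, adjusted p = 0.198), and within slide 2 every 18 d array lay above every 15 d array, by 2.59 (standard error 0.83, adjusted p = 0.359). Between 12 and 15 d the difference was -3.31 (standard error 0.83, adjusted p = 0.516), again with no overlap.

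H4 CUST_6113 had 17.33, 16.66 and 17.68 at 0 d, 17.95, 18.01 and 18.07 at 6 d and 18.25, 18.01 and 17.98 at 12 d. At 15 d it had 17.77, 17.85 and 18.12, at 18 d 18.14, 17.28 and 17.47 and at 24 d 17.46, 17.20 and 17.39. This H4 probe was lowest where CUST_67 was highest, at 0 d, and its 6 d arrays all lay above its 0 d arrays, with a mean difference of 0.78 (standard error 0.24, adjusted p = 0.171). The order of its time means was 12, 6, 15, 18, 24 and 0 d, all neighbours overlapping, and no comparison of times was called. Over the 18 arrays the 2 H4 probes had a Pearson correlation of -0.22, a description with no test, since the points share arrays and times.

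H2A, which pairs with H2B at the outside of the nucleosome core, had 1 probe. H2A CUST_6143 had 14.22, 14.23 and 14.15 at 0 d, 13.94, 13.94 and 14.23 at 6 d and 14.50, 14.17 and 14.35 at 12 d. It had 13.87, 13.69 and 14.33 at 15 d, 13.87, 13.71 and 13.34 at 18 d and 12.99, 13.54 and 13.55 at 24 d. Signal was thus lower on every 18 and 24 d array than on any 0 d array. Its means ran in the order 12, 0, 6, 15, 18 and 24 d, with overlap between all neighbours.

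From 0 to 24 d, H2A CUST_6143 fell by 0.84 (1.8-fold lower, standard error 0.20, adjusted p = 0.0246, limma). Without replicate 1, 2 or 3 of 0 d or replicate 1 of 24 d the adjusted p was 0.0558 to 0.0684, and with no normalization between arrays it was 0.210 and the difference -0.57. In the fit of the 0 and 24 d arrays alone it was 0.121, with 0 probes of the whole array called. Slide as a block gave -1.23, again from 1 array of 24 d, and this difference was not called. Between 0 and 18 d the difference was -0.56 (standard error 0.20, adjusted p = 0.0715). On slide 2 the H2A signal averaged 13.48 over the 4 arrays of 18 and 24 d and 14.06 over the 4 arrays of 12 and 15 d, and the arrays overlapped.

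H2B had 2 probes, of which CUST_7485 was the most variable of the 8. Its signal was 8.51, 12.93 and 9.05 at 0 d, 14.71, 14.56 and 12.16 at 6 d and 15.08, 14.67 and 14.35 at 12 d. It was 13.22, 10.14 and 14.57 at 15 d, 5.81, 8.73 and 7.77 at 18 d and 13.42, 12.11 and 9.78 at 24 d. The 18 d arrays were low and the 12 d arrays high, and at 0, 15 and 24 d the replicates spread over several log2 units. The means ran 12, 6, 15, 24, 0 and 18 d, with overlap between all neighbours, and spanned 7.27, a wider span than that of 99.9% of all probes. The lowest array, 5.81 at 18 d, lay near the floor, where differences on the log2 scale are less certain. The within-time SD of 1.77 was likewise above that of 98.8% of probes.

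For H2B CUST_7485 the 18 d arrays, within slide 2, were all lower than the 15 d arrays, a mean difference of -5.21 (standard error 1.33) that was not called (adjusted p = 0.224). The 24 d arrays all lay above the 18 d arrays, by 4.33 on average (standard error 1.33, adjusted p = 0.215), and the 1 array of 24 d on slide 2 was 5.98 above the mean of the 18 d arrays beside it. At 6 d the mean was 3.65 above that of 0 d (standard error 1.33, adjusted p = 0.217), with replicate 2 of 0 d (12.93) inside the range of the 6 d arrays. The contrast of 18 and 24 d against 6, 12 and 15 d therefore averaged a low and a higher time. The 18 d mean, in this contrast and in the differences from 15 and 24 d, included the array near the floor.

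HTB1 CUST_5339, the other H2B probe, had 16.06, 15.83 and 16.10 at 0 d, 17.47, 17.66 and 17.41 at 6 d and 17.88, 16.89 and 17.46 at 12 d. It had 16.65, 16.63 and 17.37 at 15 d, 17.90, 17.71 and 16.82 at 18 d and 16.26, 15.85 and 16.96 at 24 d. The 3 arrays of 0 d were close together and lay below all arrays of 6, 12, 15 and 18 d. The order of the means was 6, 18, 12, 15, 24 and 0 d, with overlap between all neighbours, and the correlation with H2B CUST_7485 was 0.12 over the 18 arrays.

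HTB1 CUST_5339 rose between 0 and 18 d by 1.48 (2.79-fold, standard error 0.34, adjusted p = 0.0116, limma), and all 3 of the 18 d arrays lay above the 0 d arrays. This call was lost in 1 of the 18 fits that each left out an array, without replicate 1 of 18 d (adjusted p = 0.0540). With slide as a block the difference was 1.40 (standard error 0.65, adjusted p = 0.318). Within slide 1, where 0 and 6 d can be set side by side, the difference was 1.51 (standard error 0.34), with no overlap, and was not called (adjusted p = 0.0873). By 24 d the mean was 0.36 above that of 0 d (standard error 0.34, adjusted p = 0.543).

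H3, the partner of H4 and the histone whose tail carries many of the known regulatory methyl and acetyl marks, had 3 probes. H3 CUST_2804 had 15.89, 15.50 and 16.31 at 0 d, 16.72, 16.79 and 16.69 at 6 d and 17.26, 16.54 and 16.70 at 12 d. It had 15.55, 15.63 and 16.64 at 15 d, 17.06, 16.60 and 16.30 at 18 d and 14.58, 15.12 and 15.47 at 24 d. All 24 d arrays were below all arrays of the other 5 times. The means ran 12, 6, 18, 15, 0 and 24 d, and 0 and 24 d, the last pair of neighbours, were the pair without overlap. Between 18 and 24 d the difference was -1.60 (3.03-fold lower, standard error 0.32, adjusted p = 0.137), and on slide 2 the 24 d array lay 2.08 below the mean of the 18 d arrays. Every 6 d array lay above every 0 d array, by 0.83 on average (standard error 0.32, adjusted p = 0.239), within slide 1.

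H3 CUST_14715, whose description names the same Arabidopsis H3 protein, had 12.08, 10.94 and 13.51 at 0 d, 13.12, 12.05 and 12.24 at 6 d and 15.00, 14.41 and 13.49 at 12 d. It had 13.56, 11.23 and 14.05 at 15 d, 13.29, 13.96 and 11.54 at 18 d and 13.21, 11.39 and 12.75 at 24 d. The 12 d arrays were the highest on average, and the arrays of every pair of times compared overlapped. Its within-time SD of 1.1 exceeded that of 95.5% of probes, no difference was called, and the largest of the 7 differences computed, -1.35 between 12 and 15 d, had a standard error of 0.83 (adjusted p = 0.678).

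H3.2 CUST_4606, the third H3 probe, was the probe of the 8 whose signal was highest at the end of the series, where the others were not at their highest. Its signal was 8.44, 8.55 and 8.21 at 0 d, 8.36, 8.04 and 8.20 at 6 d and 8.33, 7.89 and 8.61 at 12 d. It was 8.54, 8.15 and 8.70 at 15 d, 8.89, 8.88 and 9.05 at 18 d and 9.05, 8.82 and 9.40 at 24 d. Every array of 18 and 24 d lay above every array of the earlier times. The means ran 24, 18, 15, 0, 12 and 6 d, and of the neighbours only 18 and 15 d did not overlap. On slide 2 the 4 arrays of 18 and 24 d averaged 8.97 and the 4 of 12 and 15 d averaged 8.50, without overlap, a difference of 0.47. Between 15 and 18 d, all on slide 2, the difference was 0.48 (standard error 0.21, adjusted p = 0.560). A difference of 0.69 separated 0 and 24 d (standard error 0.21, adjusted p = 0.0547).

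**Figure D2:**
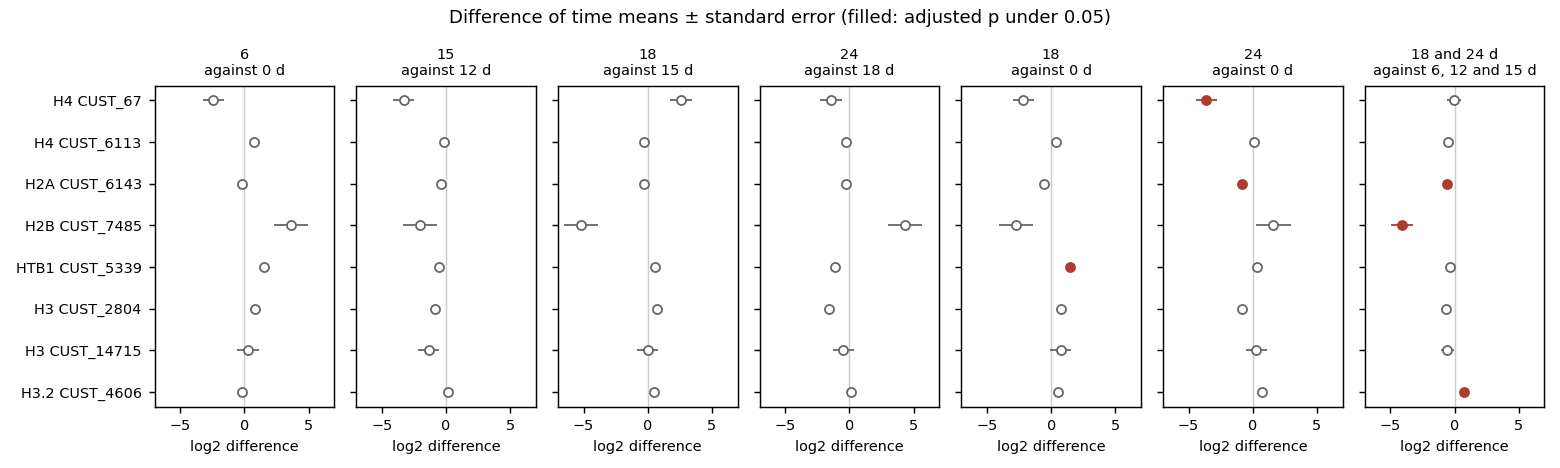
Difference of time means (horizontal axis, log2 scale) with limma's standard error (bars) for the 8 histone probes (rows) in 7 comparisons of chilling times (panels). Filled red points passed an adjusted p under 0.05, which HTB1 CUST_5339 did at 18 against 0 d, H4 CUST_67 and H2A CUST_6143 at 24 against 0 d and 3 probes in the last panel.

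Read by interval of chilling, none of the 8 probes was called in the 4 comparisons of neighbouring times that were run, and 12 against 6 d was not compared. Between 0 and 6 d, 0 of 8 were called in limma (12 probes of the array, 0.0802%), 5 had an unadjusted p under 0.05, as did 2326 of all 14957 probes, and 1, HTB1 CUST_5339, passed the Tukey test of the methods at an unadjusted p under 0.05, as did 542 of all probes. Arrays of 3 probes (H4 CUST_6113, HTB1 CUST_5339 and H3 CUST_2804) did not overlap and were higher at 6 d, beside 11.9% of all probes, and those of H4 CUST_67 were lower, beside 10.4%. The median difference of the 8 was 0.54, with 0.03 over all probes.

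Between 12 and 15 d, 0 of 8 and 0% of all probes were called, with 2 at an unadjusted p under 0.05 (1205 of all probes) and 1 by Tukey (H4 CUST_67, and 143 of all probes). Means of 7 of the 8 were lower at 15 d and the median was -0.71, with 0.02 over all probes, and H4 CUST_67 was the probe whose arrays did not overlap, beside 5.64% of probes that were lower in this way. From 15 to 18 d, 0 of 8 were called, with 0.0201% of all probes, 4 at an unadjusted p under 0.05 (1223 of all probes) and 1 by Tukey (H2B CUST_7485, and 249 of all probes). Arrays did not overlap for H4 CUST_67 and H3.2 CUST_4606, which were higher at 18 d beside 12.2% of probes, or for H2B CUST_7485, which was lower beside 8.83%.

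From 18 to 24 d, again 0 of 8 and 0% of all probes were called, with 3 at an unadjusted p under 0.05 (1794 of all probes) and 1 by Tukey (H3 CUST_2804, and 400 of all probes). Means of 6 of the 8 were lower at 24 d, with a median of -0.38 beside -0.002 over all probes. Arrays of H3 CUST_2804 lay lower without overlap (10.4% of probes did) and those of H2B CUST_7485 higher (8.63%).

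Against the unchilled buds, 1 of the 8 probes (HTB1 CUST_5339) was called at 18 d, beside 15.8% of all probes in either direction, and it was higher, as were 8.78% of all probes. At 24 d, 2 of the 8 (H4 CUST_67 and H2A CUST_6143) were called lower, beside 3.23% of all probes, and none higher, beside 4.51%. These comparisons share the 0 d arrays. Arrays did not overlap with those of 0 d for 2 probes that were higher at 18 d (HTB1 CUST_5339 and H3.2 CUST_4606, beside 20.6% of probes) and 1 that was lower (H2A CUST_6143, beside 17.3%). At 24 d they did not overlap for H3.2 CUST_4606, which was higher (17.0%), and for H4 CUST_67, H2A CUST_6143 and H3 CUST_2804, which were lower (12.6%).

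Between the late times, 18 and 24 d, and the chilled buds of 6, 12 and 15 d, 2 of the 8 were called lower (H2A CUST_6143 and H2B CUST_7485), beside 0.929% of all probes, and 1 higher (H3.2 CUST_4606), beside 0.802%. For H3.2 the groups did not overlap, which held for 0.542% of all probes. The differences were -0.62 for H2A, -4.12 for H2B and 0.70 for H3.2 (adjusted p = 0.0362, 0.0359 and 0.0205, limma). The H2B difference was lost on leaving out any of 9 arrays (replicates 1 and 2 of 6 d, 1 and 3 of 15 d, 1, 2 and 3 of 18 d, 2 and 3 of 24 d), with adjusted p up to 0.0832. That of H2A was lost for 10 (replicate 2 of 0 d, 1 and 3 of 6 d, 1 and 3 of 15 d, 2 and 3 of 18 d, 1, 2 and 3 of 24 d), with adjusted p up to 0.0977. That of H3.2 was lost for 3 (replicates 2 and 3 of 18 d and 3 of 24 d), with adjusted p up to 0.0689. With slide as a block none of the 3 was called, with differences of -0.81 for H2A (adjusted p = 0.307), -3.00 for H2B (0.724) and 0.40 for H3.2 (0.767). The 24 d part of these block differences came from 1 array. With no normalization between arrays the H2A difference was -0.34 (adjusted p = 0.256) and was not called.

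Another 9 probes are described as histones in the study's lists, which were held in part, and the array may hold more. Of these 9, 1 passed the F test over the 6 times, HTB1 CUST_4213 (adjusted p = 0.0354), beside 5.72% of all probes. It had 14.71, 14.92 and 15.79 at 0 d, 15.75, 15.50 and 15.72 at 6 d and 16.47, 16.21 and 16.01 at 12 d. It then had 15.16, 14.52 and 15.37 at 15 d, 15.86, 15.37 and 14.70 at 18 d and 14.43, 13.77 and 14.62 at 24 d. The 12 d arrays of this second HTB1 probe were the high ones and the 24 d arrays the low ones. HTB11 CUST_75, a further H2B probe, rose between 0 and 18 d by 1.57 (standard error 0.47, adjusted p = 0.0384, limma), although its arrays overlapped. It was the 1 called of these 9 in the 7 comparisons of times, beside 8.78% of all probes called higher at 18 d and 15.8% in either direction.

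The median of the 9 other histone probes was highest at 12 d and lowest at 24 d, with a lower value at 15 d than at 12 or 18 d. With each probe centred on its mean over the 6 times, this median took the values -0.14, 0.27, 0.68, -0.14, 0.28 and -0.66 in order of time. For the 8 core histone probes the values were -0.38, 0.21, 0.56, -0.01, 0.14 and -0.50, and that of all probes lay between -0.03 and 0.03. Between 18 and 24 d the means of 8 of the 9 were lower (median -0.96), 5 of them without overlap, beside 10.4% of all probes. HTB4 CUST_12291 was the exception and lay higher at 24 d without overlap, with 7.99, 8.06 and 8.16 at 18 d and 8.66, 8.61 and 8.20 at 24 d. The names in these lists were chosen with results of these arrays known. As with the 8 core probes, they came from the study's lists of probes called differentially expressed on these same arrays. Counts of these probes are therefore not like for like with shares over all probes. All share the same 18 arrays, so the medians are descriptions.

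**Figure D3:**
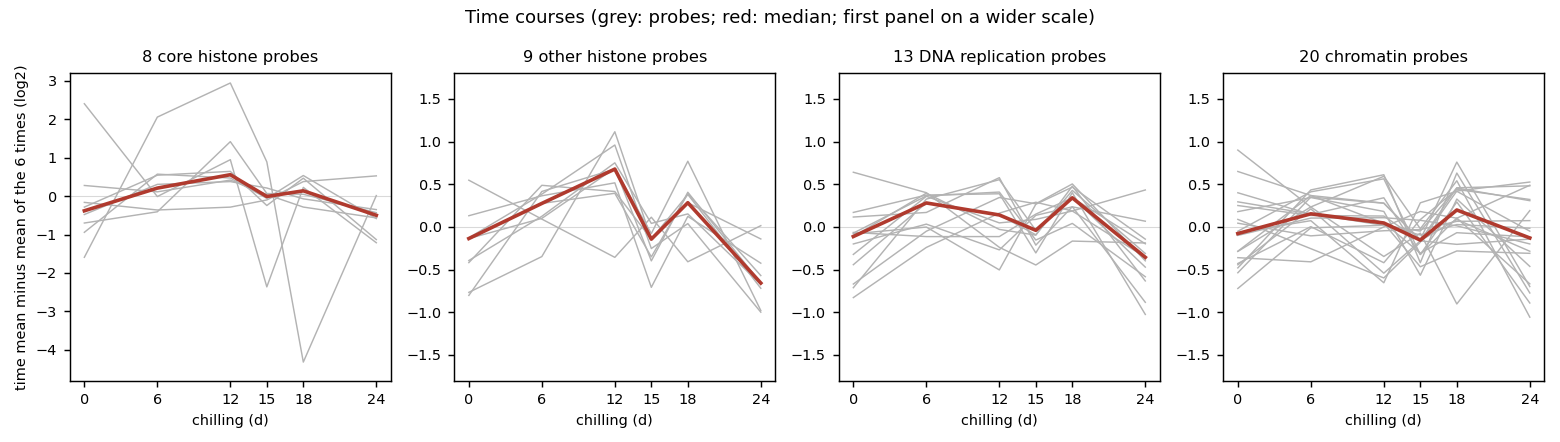
Time means of each probe minus its mean over the 6 times (vertical axis, log2) against days of chilling (horizontal axis), for the core histones, the other histone probes, DNA replication probes and chromatin probes. Grey lines are probes and the red line is their median, and the first panel has a wider scale than the others. The red lines of both histone panels peak at 12 d and are lowest at 24 d.

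DNA replication, the process that new histones accompany, was represented by 13 probes. They were drawn from the same lists of called probes, so that shares over all probes are no like measure for them. Of the 13, 4 passed the F test, beside 5.72% of all probes: PCNA1 CUST_4202, the sliding clamp of the replication fork (adjusted p = 0.0209), CUST_10060, with no symbol (0.0185), the DNA polymerase alpha subunit CUST_10862 (0.0326) and ATDPB2 CUST_12883, a subunit of DNA polymerase epsilon (0.0356). PCNA1 had 10.30, 10.20 and 10.48 at 0 d, 10.58, 10.27 and 10.29 at 6 d and 11.07, 10.82 and 10.48 at 12 d. It had 9.85, 9.73 and 10.41 at 15 d, 10.77, 10.34 and 10.24 at 18 d and 8.98, 9.41 and 9.60 at 24 d. Its 24 d arrays were below all others, as those of H3 CUST_2804 were. Against 0 d, 3 of the 13 were called higher at 18 d (ATDPB2, CUST_10862 and CUST_10006) and 1 lower (TIL1), beside 8.78% of all probes called higher and 15.8% in either direction. At 24 d, 1 was called higher (CUST_10006), beside 4.51% of all probes, and 3 lower, beside 3.23% (PCNA1, thymidine kinase and TIL1, with differences of -1.0, -1.20 and -0.83). Between 18 and 24 d the means of 12 of 13 were lower and those of 11 did not overlap, beside 10.4% of all probes that were lower in this way, with a median of -0.62, but none was called in limma.

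Of 20 chromatin probes, drawn from the same lists of called probes, 3 passed the F test, beside 5.72% of all probes. They were the DNA methyltransferase MET1 CUST_14695 (adjusted p = 0.0154), the high mobility group protein HMGB6 CUST_328 (0.0202) and the SNF2-family remodelling protein CUST_10882 (0.0478). MET1, which copies CG methylation onto newly replicated DNA, had 15.07, 15.00 and 15.41 at 0 d, 15.50, 15.69 and 15.68 at 6 d and 16.04, 15.83 and 15.46 at 12 d. It had 14.71, 14.86 and 15.11 at 15 d, 15.99, 15.43 and 15.10 at 18 d and 14.19, 14.54 and 14.24 at 24 d. It was thus low at 15 and 24 d, and from 0 to 24 d it fell by 0.84 (standard error 0.22, adjusted p = 0.0356). Against 0 d, 4 of the 20 were called higher at 18 d (HMGB6, the SET domain protein CUST_6579, the EBS-BAH-PHD protein CUST_2326 and CUST_10882), beside 8.78% of all probes and 15.8% in either direction, and 2 lower, the nucleosome-binding protein CUST_4173 (-1.8) and the histone chaperone NAP1;3 (-0.45). At 24 d, 2 were called higher (CUST_10882 and the histone ubiquitination probe CUST_4518), beside 4.51% of all probes, and 2 lower (MET1 and ISW1), beside 3.23%. In the contrast of the late with the middle times, a bromodomain protein, CUST_2111, was called higher by 0.82, beside 0.802% of all probes. CUST_10060 of the replication list was called lower, beside 0.929%.

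Signal of some of the histone probes also varied together from array to array. Over the 18 arrays, the median Pearson correlation with the 16 other histone probes was 0.67 for H3 CUST_2804, 0.56 for HTB1 CUST_5339, 0.53 for H4 CUST_6113, 0.52 for H3 CUST_14715 and 0.40 for H2A CUST_6143. It was 0.16 for H4 CUST_67, 0.11 for H2B CUST_7485 and -0.20 for H3.2 CUST_4606, beside medians of -0.04 to 0.05 with all probes. The last 3 thus had the lowest medians, although H4 CUST_67 had 0.51 with H2A CUST_6143. The 95th percentile of r with all probes lay below the median for H3 CUST_2804 (0.58), H4 CUST_6113 (0.52) and H3 CUST_14715 (0.46). It lay above the median for HTB1 CUST_5339 (0.61) and H2A CUST_6143 (0.52). HTB4 CUST_12291 had the lowest r of the histones with HTB1 CUST_5339 (-0.37) and with H3 CUST_14715 (-0.34). After each time's mean was subtracted, so that only replicates of a time were compared, the medians were 0.61 for H3 CUST_2804, 0.55 for HTB1 CUST_5339, 0.52 for H3 CUST_14715, 0.50 for H4 CUST_6113 and 0.40 for H2A CUST_6143. H3.2 CUST_4606 then had 0.20, H4 CUST_67 0.25 and H2B CUST_7485 -0.04. These are descriptions over 18 arrays that share slides, RNA and time points, and no p was computed.

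**Figure D4:**
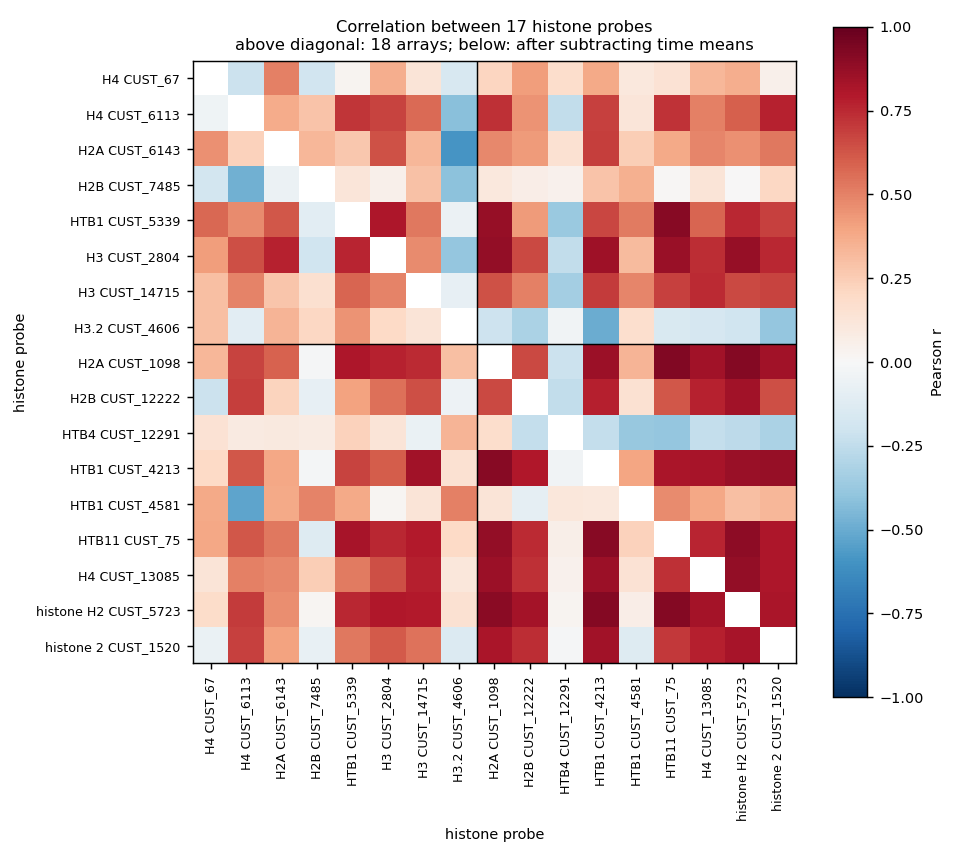
Pearson correlation (colour, from -1 in blue to 1 in red) between the 17 probes described as histones in the study's lists, named on both axes. Values above the diagonal are over the 18 arrays, those below it are over the same arrays after subtracting the mean of each time, and the black lines set off the 8 core histone probes. H3 CUST_2804 and HTB1 CUST_5339 are red with most others, and H2B CUST_7485 and H3.2 CUST_4606 are pale or blue above the diagonal. Below it these reach 0.49 and 0.51 with HTB1 CUST_4581, and H3.2 CUST_4606 has 0.45 with HTB1 CUST_5339.

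At each of the 6 times, 1 replicate was the highest array for 9 to 15 of the 17 described histone probes. At 15 d, replicate 3 was the highest array for 8 of the 8 core histone probes and for 15 of all 17 histone probes, and for 35.7% of the probes of the array. At 12 d, replicate 1 was highest for 15 of 17 (31.7% of all probes), at 18 d, replicate 1 for 11 and replicate 3 lowest for 12 of 17 (39.2 and 33.3%), and at 24 d, replicate 3 highest for 12 and replicate 2 lowest for 11 (42.6 and 29.7%). At 0 d, replicate 3 was highest for 12 of 17 (34.0%). At 6 d, replicate 1 was highest for 9 of 17 (36.9%). Whether the buds of those replicates, their RNA or the array set this was not tested.

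Among probes with a protein name or symbol, the nearest to H3 CUST_2804 was thymidine kinase CUST_6804, an enzyme that supplies thymidine nucleotide for DNA synthesis (r = 0.93 over 18 arrays, and 0.93 after subtracting time means). Among all probes, named or not, thymidine kinase ranked 8 by r. The thymidine kinase signal was 11.48, 11.14 and 11.80 at 0 d, 11.73, 11.68 and 11.62 at 6 d and 11.91, 11.45 and 11.71 at 12 d. It was 10.78, 10.53 and 11.69 at 15 d, 12.31, 11.58 and 11.23 at 18 d and 9.94, 10.13 and 10.76 at 24 d. Both probes had their lowest mean at 24 d. NTRA CUST_6629 (0.93) and a ubiquitin-protein ligase, CUST_15175 (0.93), followed, and MET1 had 0.92. Nearest to HTB1 CUST_5339 were HTB11 CUST_75 (0.91), MYB88 (0.90) and ATDPB2 (0.89). Nearest to H4 CUST_6113 were the RNA-binding protein SCL30a (0.81), ATDPB2 (0.78) and histone 2 CUST_1520 (0.77), and to H3 CUST_14715 the probe AT5G57815 (0.75), H4 CUST_13085 (0.75) and HTB1 CUST_4213 (0.70).

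**Figure D5:**
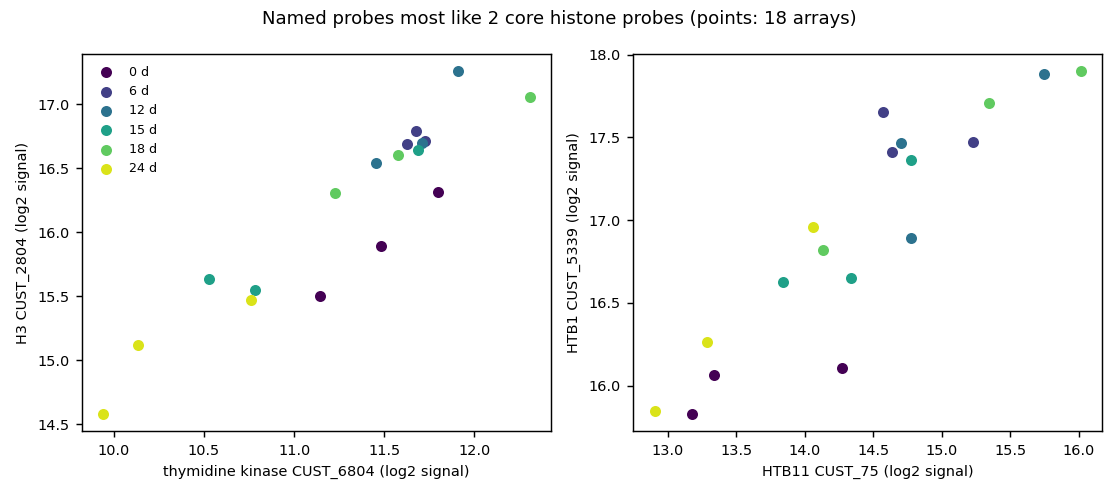
Normalized log2 signal of H3 CUST_2804 against thymidine kinase CUST_6804 (left) and of HTB1 CUST_5339 against HTB11 CUST_75 (right). Each point is 1 of the 18 arrays, coloured by days of chilling. Signals vary together (r = 0.93 and 0.91), with the 24 d arrays at the lower left of the first panel and most of those of 0 and 24 d at the lower left of the second.

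The remaining probes had other neighbours among the named probes, and these ranked between 2 and 43 by r among all probes. H4 CUST_67 was nearest to a bromodomain protein, CUST_12435 (r = 0.75), APC8, a subunit of the anaphase-promoting complex that drives exit from mitosis (0.74), and a prenylated Rab acceptor (0.74). H2A CUST_6143 was nearest to AT1G54050 (0.83), a 60S ribosomal protein L29-like probe (0.83) and AT3G17340 (0.82). H2B CUST_7485 was nearest to RPL34 (0.77), then a Pm27-like protein (0.63) and the mismatch repair gene MSH3 (0.62), and H3.2 CUST_4606 to the vesicle transport protein SEC20 (0.88), ribosomal protein L22 (0.86) and a peptidyl-prolyl isomerase (0.85). No histone probe was among the 3 nearest named probes of these 4. With the 13 replication probes the median correlation was 0.62 for H3 CUST_2804, 0.57 for HTB1 CUST_5339, 0.48 for H4 CUST_6113 and 0.27 for H2A CUST_6143, and it was 0.12 for H3 CUST_14715, 0.03 for H4 CUST_67, -0.05 for H2B CUST_7485 and -0.10 for H3.2 CUST_4606. Within chromatin, H3 CUST_2804 was nearest to MET1, HTB1 CUST_5339 to a SET domain protein (CUST_6579, 0.86) and H3.2 CUST_4606 to the bromodomain protein CUST_2111 (0.81).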

How the data were processed

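Buds at 6 chilling times, 3 replicates each, were measured on 18 single-channel arrays. For each array the authors deposited the scanner's intensity per spot (Agilent Feature Extraction 10.5.1.1), already background-subtracted but not yet scaled across arrays. Their log2 table, deposited beside it, was quantile-normalized by the authors, covers 14949 probes and served as an alternative.

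Intensities were taken to log2, control spots and spots flagged as non-uniform or outlying were left out, spots were averaged per probe (14957 probes) and arrays were quantile-normalized, the step the methods name. With R 4.3.3, limma 3.58.1 and statmod 1.5.0, each time's mean was estimated in 1 fit over the 18 arrays. Moderated F over the 6 times and moderated t for 7 comparisons were adjusted by Benjamini-Hochberg over all probes, with a threshold of 0.05. Standard errors come from this fit, and the number of arrays, 3 a time, limits the precision. The script was tested on simulated data.

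Names come from the study's supplementary descriptions, held in part, which describe 3720 probes, 1230 of them with a protein name or symbol. Those descriptions cover probes that the study called differentially expressed on these arrays. Further histone, replication or chromatin probes may therefore be on the array. The members, the lists (other histones, DNA replication, chromatin, bud tissue markers) and the tests were chosen with earlier results of these data known. By the rule for named genes, all 8 core histone probes are named, any other histone probe may be, and from the replication and chromatin lists those called in a comparison or highest or lowest in it may be. Likeness was Pearson's r over 18 arrays. Alternatives were other normalizations (75th percentile, none), the value table, normexp background correction (offset 50), flagged spots kept, a filter on dim probes, slide or replicate number as a block, other priors and tests, and each array left out. Values of the authors' own comparisons in the supplementary files were not used, and no probe sequence was used.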

Additional observations from a re-analysis of the deposited data

How the results depend on the processing

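All 8 probes were above background on every array. The lowest signal, 5.81 for H2B CUST_7485 at 18 d, lay near the floor, where differences on the log2 scale are less certain. DNA polymerase alpha CUST_10862, at 5.53 to 5.78 on the 0 d arrays, was above background on 2 of those 3. Further limits were 3 arrays a time, the slides and the closeness of the calls to the threshold. Over all probes, 856 passed the F test in the main fit, 629 with 75th percentile scaling and 190 with no normalization between arrays. With replicate number as a block 398 passed, and with the methods' ANOVA after Benjamini-Hochberg adjustment 893. Of the 8 histone probes, 6 passed the F test in the main fit. The number was 3 with 75th percentile scaling, 0 with no normalization between arrays, 0 with slide as a fixed block, 1 with slide as a random block, 1 with replicate number as a block, 3 with the methods' ANOVA after Benjamini-Hochberg adjustment, and 0 to 6 on leaving out single arrays. Over all probes, the 856 F calls became 59 with the fixed slide block, 322 with the random slide block and 182 to 1158 without single arrays, and with the fixed slide block the 2360 calls between 0 and 18 d became 50 and the 1158 between 0 and 24 d became 9. Between 0 and 18 d, the 1 call became 3 with normexp, 0 with the fixed slide block, 0 with the methods' Tukey test after adjustment and 0 to 2 without single arrays. Between 0 and 24 d, the 2 calls became 0 with the fixed slide block, 0 in a fit of the arrays compared, 0 with the adjusted Tukey test and 0 to 3 without single arrays. For 18 and 24 d against 6, 12 and 15 d, the 3 calls became 0 with the fixed slide block, 1 with the replicate block (H3.2, with adjusted p = 0.0633 for H2A and 0.0606 for H2B) and 0 to 3 without single arrays. The comparisons 6 against 0 d, 15 against 12 d, 18 against 15 d and 24 against 18 d, with 0 calls, each had 1 with the unadjusted Tukey test and 0 without any single array. The Tukey test was not run for 18 and 24 d against 6, 12 and 15 d. Over all probes, the fit of the 0 and 24 d arrays alone called 0. The adjusted Tukey test called 273 between 0 and 18 d and 47 between 0 and 24 d. Normexp called 2464 between 0 and 18 d, and the replicate block 115 in the late contrast. Without single arrays, all-probe calls were 1050 to 3012 for 18 against 0 d and 378 to 1736 for 24 against 0 d. For the late contrast they were 68 to 426.

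On average, arrays with the same replicate number did not deviate together, with a mean correlation of -0.013 beside 0.007 for pairs with different numbers. Deviations of same-numbered arrays from their time means correlated at -0.234 to 0.273 over 45 pairs, and 7 pairs were over 0.1.

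Differences that changed sign were all uncalled. For H3.2 CUST_4606 between 12 and 15 d (0.19), 75th percentile scaling gave -0.11, no normalization -0.16, the slide block -0.15, and leaving out single arrays -0.0073 to 0.35. Its difference between 18 and 24 d was -0.0056 to 0.28 without single arrays. For H4 CUST_6113 between 0 and 24 d, 75th percentile scaling gave -0.12 and leaving out single arrays -0.15 to 0.36. Without normalization, H2A CUST_6143 between 15 and 18 d was 0.066, H3 CUST_14715 there was 0.35 and H4 CUST_67 in the late contrast was 0.19 (0.023 with normexp and -0.54 to 0.37 without single arrays). With the slide block, H3 CUST_14715 was 0.28 between 18 and 24 d and 0.50 in the late contrast. Leaving out single arrays gave, for H3 CUST_14715, -0.33 to 0.96 between 0 and 6 d, -0.88 to 0.68 between 15 and 18 d, -1.17 to 0.051 between 18 and 24 d and -0.35 to 0.94 between 0 and 24 d. The causes were not tested.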
